A study of Homo sapiens with 6 samples.

Results

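The genes described here are 33 transcriptional targets of the tumour suppressor p53, chosen by name for their place in the pathway, with earlier results of these arrays known. A gene counted as measured where a probe set of the array named it alone, by its current or an older symbol. By that rule 31 of the 33 genes were measured, each by 1 probe set, out of 18378 genes that a probe set of the array names alone. BTG2 and FDXR were not analysed here. The RNA came from a pair of isogenic lines made in HEK293, a human embryonic kidney line transformed with adenovirus DNA. HEK-BAHD1 carries 1 copy of the cDNA of BAHD1, a protein that takes part in silencing chromatin, driven by the cytomegalovirus promoter at an FRT recombination site. HEK293-CT carries at that site a β-galactosidase sequence placed out of frame per the labels, or the empty vector per the methods, and both lines were kept under hygromycin. Each line was a stable pool of transfectants, and 3 cultures of each were hybridised to 1 array apiece, so a p-value here weighs the difference against how much sister cultures of 1 pool varied.

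p53 is a transcription factor that is kept scarce in resting cells by the ubiquitin ligase MDM2, and that accumulates after DNA damage and other stress. It then binds a DNA element made of adjoining decamers and activates genes that arrest the cell cycle, repair DNA, induce death or feed back on p53 itself. HEK293 cells make the adenovirus E1A and E1B proteins, of which an E1B product binds p53 and restrains its activity as a transcription factor.

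The gene that was introduced went against the labels. BAHD1 had log2 signals of 10.06, 9.81 and 9.93 on the arrays labelled HEK293-CT, and of 6.75, 7 and 6.76 on those labelled HEK-BAHD1. The log2 fold change was -3.10 (SE 0.093, limma adjusted p = 3.12e-05), a signal 8.55-fold lower on the arrays that should carry the additional copy. Every direction below is therefore that of the labels, written as arrays labelled HEK-BAHD1 against arrays labelled HEK293-CT, and would turn if the labels were exchanged. Array medians lay between 5.46 and 5.56, and arrays of one label correlated at 0.997 or more. Of 7 markers of HEK293 cells, VIM, KRT8, KRT18, NEFL and LIN28B had mean log2 signals between 8.71 and 11.7 in both groups, whereas PAX2 was at 5.66 and 5.82 and NEFM at 4.49 and 5.26. On the arrays labelled HEK-BAHD1, VIM and LIN28B were called lower, NEFL and NEFM higher. Markers of fibroblasts (7), blood cells (5) and hepatocytes or endothelium (6) did not exceed a mean of 6.64. Of these, COL3A1, with means of 6.03 and 5.72, and HBB, with 4.48 and 4.16, were called lower, and their part in the results was not tested.

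Of the 31 measured p53 targets, the arrays labelled HEK-BAHD1 showed 6 down-regulated and 0 up-regulated. The 6 were PLK2, KITLG, PMAIP1, FAS, PPM1D and TNFRSF10B, with falls between 0.27 and 0.74 on the log2 scale, or 1.21-fold to 1.67-fold. In RNA from whole cultures, a lower level in every cell and a loss in some of the cells cannot be told apart. A gene was called when its limma p, adjusted by Benjamini-Hochberg over all 21062 probe sets that name at least 1 gene, was under 0.05 and its group medians differed by more than 0.2 on the log2 scale. The members called lower were 19.4% of those measured, against 6.39% of all probe sets tested. When the arrays were first centred on their medians, 8.66% of all probe sets were called lower, and ZMAT3 joined the members called. Upward calls took 6.79% of all probe sets, and calls in either direction 13.2%. At an unadjusted p under 0.05, 10 members were lower, against 14.8% of all probe sets, and 1 was higher, against 14.5%. With the LPE test, which pools the error of probe sets of like signal, the counts were again 6 lower and 0 higher, against 7.29% and 6.19%. The members are brighter than most probe sets, with 26 in the upper 50% by mean signal, where the share called lower was 23.1% of members and 10.1% of all, and the share called higher 0 and 9.04%.

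**Figure D1:**
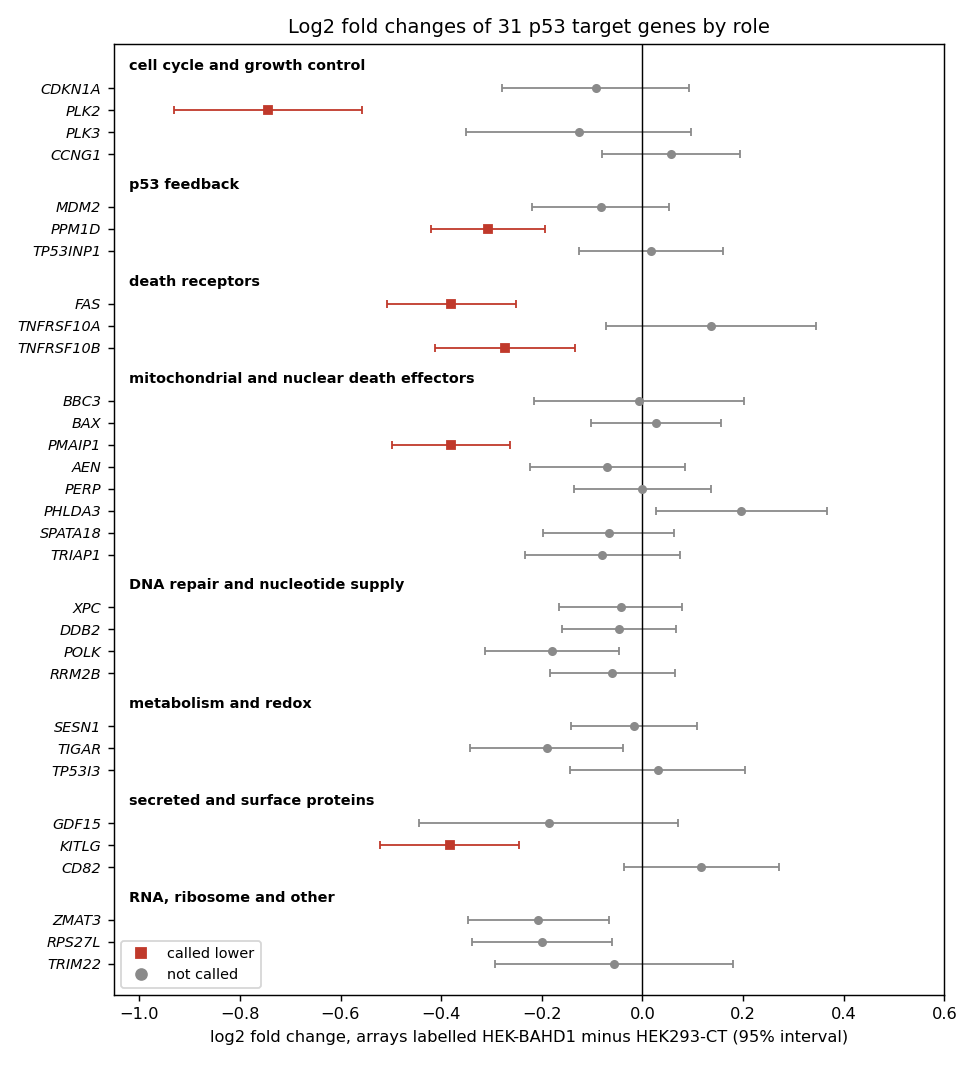
Log2 fold change (arrays labelled HEK-BAHD1 minus arrays labelled HEK293-CT) of the 31 measured p53 target genes, with 95% confidence intervals from limma, grouped by role. The 6 members called lower lie between -0.74 and -0.27, and the other 25 lie between -0.21 and 0.20.

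Among the genes of the cell cycle, PLK2 had the largest change of any member. It encodes a polo-like kinase active in centriole duplication and in the response to stress. On the arrays labelled HEK293-CT its log2 signals were 7.91, 8.14 and 7.93, and on those labelled HEK-BAHD1 7.26, 7.33 and 7.16. The groups were 0.58 apart at their nearest arrays, and within each group the arrays spread by less than that gap. The mean went from 7.99 ± 0.13 to 7.25 ± 0.085 (SD, n = 3), a log2 fold change of -0.74 (SE 0.080, 95% CI -0.93 to -0.56, limma adjusted p = 0.0021). Of the 1345 probe sets called lower in the experiment, PLK2 ranked 71 by size. CDKN1A, which encodes the cyclin-dependent kinase inhibitor p21 and is the best known arrest gene of p53, had log2 signals of 7.64, 7.61 and 7.59 against 7.63, 7.35 and 7.58. Only the second array labelled HEK-BAHD1 was low, and the groups overlapped (log2 fold change -0.0083 without that array). Its log2 fold change of -0.09 had an interval from -0.28 to 0.09 (limma adjusted p = 0.495), so a change as large as that of PLK2 lies outside the interval. PLK3, another polo-like kinase, and CCNG1, which encodes cyclin G1, were not called either, with log2 fold changes of -0.13 (-0.02 without the third HEK293-CT array) and 0.06.

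The genes that feed back on p53 differed from each other. PPM1D encodes the phosphatase WIP1, which takes phosphate off p53 and off the kinases that activate it. Its log2 signals were 9.83, 9.80 and 9.81 on the arrays labelled HEK293-CT, and 9.50, 9.51 and 9.51 on those labelled HEK-BAHD1. The arrays of each group were nearly identical, and the groups did not overlap. PPM1D fell by 0.31 (SE 0.049, 95% CI of the log2 fold change -0.42 to -0.19, limma adjusted p = 0.00849). MDM2, the ligase that marks p53 for degradation, had log2 signals of 10.62, 10.72 and 10.72 against 10.64, 10.63 and 10.54. Its groups overlapped through the first HEK293-CT array and the first labelled HEK-BAHD1. The log2 fold change was -0.08 (95% CI -0.22 to 0.05, limma adjusted p = 0.402). TP53INP1, a stress protein that aids the phosphorylation of p53, had a log2 fold change of 0.017.

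Both well-expressed death receptor genes were lower. FAS encodes the receptor of Fas ligand, and TNFRSF10B encodes DR5, a receptor of the death ligand TRAIL. For FAS the log2 signals were 8.28, 8.39 and 8.28 against 7.94, 7.93 and 7.94, with every array labelled HEK-BAHD1 at least 0.34 below every other array. The log2 fold change was -0.38 (SE 0.055, 95% CI -0.51 to -0.25, limma adjusted p = 0.00605). For TNFRSF10B the log2 signals were 10.48, 10.43 and 10.50 against 10.11, 10.26 and 10.22, and the groups were 0.17 apart. It fell by 0.27 (SE 0.060, 95% CI of the log2 fold change -0.41 to -0.13, limma adjusted p = 0.0254). That call was the least secure of the 6, since it was kept in 7 of 14 alternative analyses and was lost when any array but the second labelled HEK-BAHD1 was left out, with an adjusted p of up to 0.0869. TNFRSF10A, which encodes the other TRAIL death receptor, DR4, had mean log2 signals of only 3.78 and 3.91 and was not called (log2 fold change 0.14).

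Of the 8 members grouped under death inside the cell, not all of which carry it out, PMAIP1 alone was called. It encodes NOXA, a BH3-only protein that neutralises the survival protein MCL1, and had the highest signal of any member. Its log2 signals were 11.64, 11.59 and 11.64 on the arrays labelled HEK293-CT, and 11.26, 11.22 and 11.25 on those labelled HEK-BAHD1. Arrays of a group spread by at most 0.05, against a gap of 0.33 between groups. The log2 fold change was -0.38 (SE 0.050, 95% CI -0.50 to -0.26, limma adjusted p = 0.00433). BBC3, which encodes PUMA, another BH3-only protein, gave 6.67, 6.38 and 6.63 against 6.59, 6.45 and 6.62. BAX, the pore former of the outer mitochondrial membrane, gave 9.06, 8.97 and 9.03 against 8.99, 9.08 and 9.07. The groups of both overlapped, and their log2 fold changes were -0.0067 (95% CI -0.22 to 0.20) and 0.03 (95% CI -0.10 to 0.16). The nuclease gene AEN was at -0.07, SPATA18, which acts in mitochondrial quality control, at -0.07, TRIAP1, an inhibitor of apoptosis, at -0.08, and PERP, which encodes a membrane protein of desmosomes, at 0 with a mean of 9.91 in both groups. PHLDA3, which encodes a repressor of AKT signalling, had the highest log2 fold change of the members, 0.20 (95% CI 0.026 to 0.37). Its log2 signals were 7.38, 7.54 and 7.39 against 7.55, 7.61 and 7.74. The groups were separated by only 0.01, and its limma adjusted p was 0.122.

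**Figure D2:**
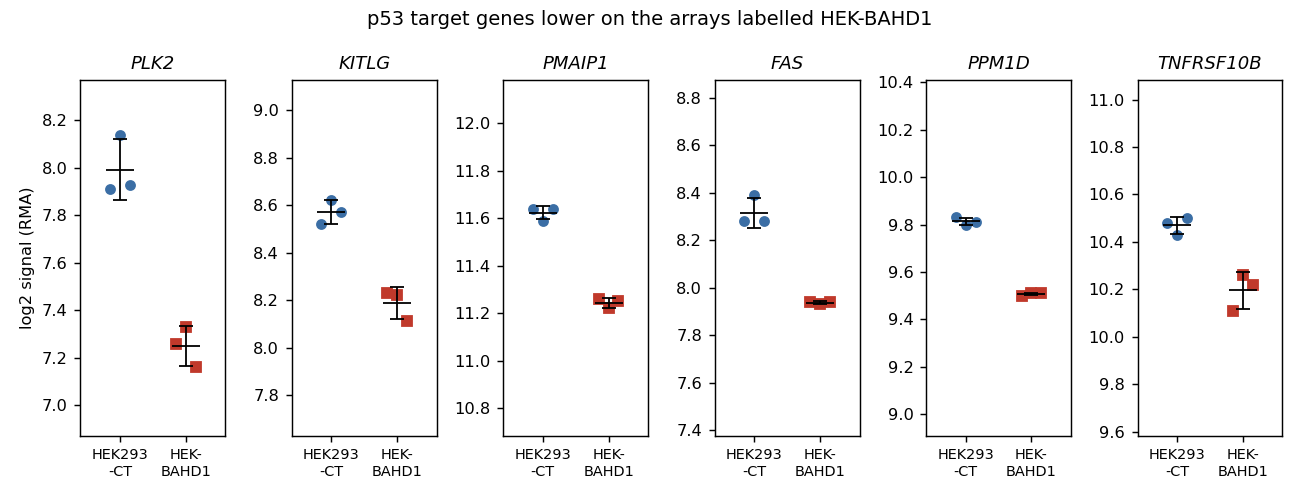
Log2 signal of the 6 p53 target genes called lower on each of the 6 arrays, with a point per array, a line at the group mean, bars of 1 SD and the same span of the vertical axis in each panel. In every panel the 3 arrays labelled HEK-BAHD1 lie below the 3 labelled HEK293-CT, by 0.58 for PLK2 and by 0.17 for TNFRSF10B at the nearest arrays.

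Among secreted and surface proteins, KITLG was called. It encodes stem cell factor, the ligand of the receptor KIT. Its log2 signals were 8.52, 8.62 and 8.57 on the arrays labelled HEK293-CT, and 8.23, 8.22 and 8.11 on those labelled HEK-BAHD1. The groups were 0.29 apart, with the third array labelled HEK-BAHD1 the lowest. KITLG fell by 0.38 (SE 0.059, 95% CI of the log2 fold change -0.52 to -0.25, limma adjusted p = 0.00788). GDF15, a stress-induced cytokine, had means of 5.50 and 5.31 and overlapping groups (log2 fold change -0.19, limma adjusted p = 0.314), and its log2 fold change ran from -0.31 to -0.11 when single HEK293-CT arrays were left out. CD82, a tetraspanin, had a log2 fold change of 0.12.

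No gene of DNA repair or of metabolism was called. DDB2 and XPC, which recognise bulky DNA lesions, were at -0.05 and -0.04, and RRM2B, a ribonucleotide reductase subunit, was at -0.06. POLK, a translesion DNA polymerase, was at -0.18 without overlap between groups, but its limma adjusted p was 0.0784. TIGAR, which lowers glycolytic flux, was at -0.19 without overlap (limma adjusted p = 0.0992). SESN1, an inhibitor of the growth kinase complex mTORC1, was at -0.017, and TP53I3, an oxidoreductase, was at 0.03.

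The remaining members came near the threshold or were dim. ZMAT3 encodes an RNA-binding protein that regulates splicing, and RPS27L encodes a ribosomal protein related to RPS27. ZMAT3 had log2 signals of 8.06, 8.09 and 8.04 against 7.83, 7.95 and 7.79, a log2 fold change of -0.21 (limma adjusted p = 0.0617). RPS27L had 6.88, 7.03 and 7.02 against 6.79, 6.78 and 6.76, a log2 fold change of -0.20 (limma adjusted p = 0.0669). Neither gene had overlapping groups, and each passed the test under some alternatives, ZMAT3 with centred arrays, without dim probe sets or with a variance trend, and RPS27L with renewed quantile normalization or without dim probe sets. TRIM22, an interferon-inducible ubiquitin ligase, had mean log2 signals of 3.42 and 3.36 and a log2 fold change of -0.06. The 95% intervals of all 25 members that were not called lay within 0.5 of 0 on the log2 scale. That bound is wider than the fall of every called member but PLK2. Some of these intervals take in falls as large as those called, as for GDF15 (-0.44 to 0.07) and ZMAT3 (-0.35 to -0.07).

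Most members had the lower mean on the arrays labelled HEK-BAHD1. It was lower there for 23 members, higher for 7 and equal for PERP. Groups did not overlap, with the arrays labelled HEK-BAHD1 lower, for 11 members (35.5%), against 16.9% of all probe sets, and with them higher for 1, against 16.7%. The median log2 fold change of the members was -0.07, beside 0.0033 for all probe sets and -0.02 for those in the upper 50% by signal. Relative to the HEK293-CT means, the median over members was -0.08, -0.08 and -0.08 on the 3 arrays labelled HEK-BAHD1 and -0.03, 0.0033 and 0.017 on the others. The offset was alike on the 3 arrays, and these medians had a pooled SD of 0.017 between arrays of a group. The median of the members was -0.11 when arrays were centred and -0.044 when they were quantile normalized again. Under centring the median of all probe sets moved too, to -0.037, and under renewed quantile normalization it was 0.0019.

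The 6 genes called lower lie on 6 different chromosomes and fall in 5 of 8 roles. None was among the dim genes, since their mean signals stood between the 65.6 and 98.4 percentiles of all probe sets tested. As a description of the surroundings, the 20 genes nearest to each called member in chromosomal order were summarised. Their median log2 fold change was -0.125 for PLK2, -0.057 for PMAIP1, -0.05 for PPM1D, -0.025 for KITLG, -0.0017 for FAS and 0.042 for TNFRSF10B. Over all 31 members the neighbours' medians ran from -0.125 to 0.072, with that of PLK2 the lowest. Since the called genes were picked for their change and medians of 20 genes lie near 0, no comparison is drawn between the values.

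**Figure D3:**
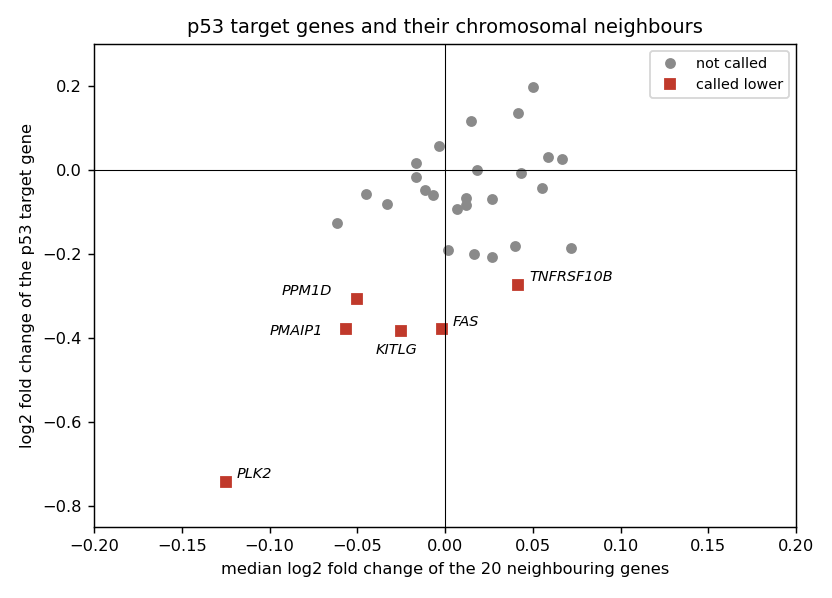
Log2 fold change of each measured p53 target gene (vertical axis) against the median log2 fold change of the 20 genes nearest to it on the chromosome (horizontal axis, on a narrower scale). The 6 called genes, drawn as squares, lie between -0.74 and -0.27, while the medians of their neighbours lie between -0.125 and 0.042.

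Promoter sequence was examined for the element that p53 binds. The windows held 250 bases before and 50 after each transcription start in RefSeq on GRCh38.p14, and 27 of the 33 members had one. The search was for the p53 consensus decamer, in which purines precede a core of C, a pair of bases that are A or T, and G, followed by pyrimidines; this pattern reads as the same pattern on both strands. An exact decamer stood in the windows of 7 members (25.9%), namely PLK2, FAS, AEN, DDB2, SESN1, FDXR and RPS27L, against 8.06% of all genes with a window. Abutting decamers with at most 2 mismatches stood in 4, MDM2, FAS, AEN and DDB2 (14.8%), against 0.359% of all genes. A gene with several starts was counted when any of its windows held a match. FAS, MDM2, DDB2, SESN1 and FDXR also had windows without a match. Of the members called lower, 5 had a window, of which 2 held a decamer and 1 an abutting pair. Of the 20 members with a window that were measured and not called, 4 held a decamer and 3 an abutting pair. The letters were thus found in members of both kinds, and a match is a description of sequence that does not show binding. No match was found near the starts of PPM1D, PMAIP1 and KITLG, which says only that these letters are not in their windows.

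The promoters of PLK2 and FAS are shown because they are the called members with a decamer, printed in capitals within the 250 bases before the start on the strand of the gene. That of PLK2 is chr5:58460087-58460336, minus strand, with the decamer at -132 to -123. That of FAS is chr10:88991181-88991430, plus strand, with the decamer at -122 to -113. The windows at other starts of FAS, chr10:88990548-88990847 and chr10:88990664-88990963, held no match. Both end before this promoter begins, so the decamer is upstream of the start shown and downstream of those other starts.
PLK2: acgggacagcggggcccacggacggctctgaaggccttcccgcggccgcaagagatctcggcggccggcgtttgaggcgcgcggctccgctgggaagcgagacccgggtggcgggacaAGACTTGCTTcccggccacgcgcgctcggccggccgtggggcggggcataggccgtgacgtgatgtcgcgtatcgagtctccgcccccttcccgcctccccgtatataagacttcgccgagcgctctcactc
FAS: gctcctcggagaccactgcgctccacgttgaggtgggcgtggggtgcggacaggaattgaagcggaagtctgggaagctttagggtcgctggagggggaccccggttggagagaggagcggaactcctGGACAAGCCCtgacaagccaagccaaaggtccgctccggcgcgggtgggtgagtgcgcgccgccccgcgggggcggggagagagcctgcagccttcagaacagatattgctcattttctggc

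In FAS the bases after the decamer made an abutting pair with it. The pair is shown in capitals beside the pairs of 3 members that were not called, since the same kind of element stood in genes that differed in outcome. The windows are chr10:88991304-88991333 for FAS, chr12:68808918-68808947 for MDM2, chr15:88621301-88621330 for AEN and chr11:47214964-47214993 for DDB2, all on the plus strand.
FAS: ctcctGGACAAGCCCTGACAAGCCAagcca
MDM2: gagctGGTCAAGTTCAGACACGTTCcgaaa
AEN: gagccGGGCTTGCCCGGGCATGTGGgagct
DDB2: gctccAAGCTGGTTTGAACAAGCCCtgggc
The single decamers of SESN1 (chr6:109009018-109009047) and RPS27L (chr15:63157517-63157546), both on the minus strand, also belong to members that were not called.
SESN1: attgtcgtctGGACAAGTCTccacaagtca
RPS27L: ggcctagagcAGACAAGCCCgccccgccgc
The log2 fold changes that go with these elements were -0.38 for FAS, -0.08 for MDM2, -0.07 for AEN, -0.05 for DDB2, -0.017 for SESN1 and -0.20 for RPS27L. PLK2, with the largest fall of the members, had a single decamer and no pair.

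Other genes of the pathway are given by list, beside the shares over all probe sets. Of 26 measured regulators and cofactors of p53, 3 were lower (11.5%, against 6.39% of all probe sets) and 0 higher (against 6.79%) by limma. At an unadjusted p under 0.05, 10 were lower (38.5%, against 14.8%) and 2 higher (against 14.5%). By LPE 5 were lower and 0 higher, against 7.29% and 6.19% of all probe sets. The 3 were PRMT5, an arginine methyltransferase that modifies p53, COP1, a ubiquitin ligase of p53, and SIRT1, a deacetylase of p53. PRMT5 had log2 signals of 11.48, 11.52 and 11.47 against 11.22, 11.23 and 11.15, with no overlap, and fell by 0.29 (SE 0.053, limma adjusted p = 0.0132). COP1 and SIRT1 fell by 0.25 and 0.23 (limma adjusted p = 0.031 and 0.0324), and both calls were lost when any single array was left out, which brought the list to 1 call for 5 of the 6 arrays. MDM4, the partner of MDM2 in restraining p53, gave 7.38, 7.42 and 7.53 against 7.19, 7.25 and 7.24, with a log2 fold change of -0.22 that missed the threshold (limma adjusted p = 0.0513). Of 19 kinases and mediators of the DNA damage response, 2 were lower (10.5%, against 6.39%) and 1 higher (5.26%, against 6.79%). CLSPN, an adaptor in the activation of the kinase CHK1, and TOPBP1, an activator of ATR, had log2 fold changes of -0.37 and -0.20, and the histone gene H2AX one of 0.26. Each of those 3 calls was lost in at least 5 of the 6 analyses that left out an array, CLSPN being kept only without the first labelled HEK-BAHD1.

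Targets reported for p53 outside the 33 changed in both directions. Of 62 measured, 10 were lower (16.1%, against 6.39% of all probe sets) and 7 higher (11.3%, against 6.79%), with a median log2 fold change of -0.0083. The larger falls were in SERTAD1, a transcriptional regulator that binds cyclin-dependent kinase CDK4, at -0.79 (SE 0.093, limma adjusted p = 0.00275), TNFRSF10D, a decoy receptor of TRAIL, at -0.48 (limma adjusted p = 0.0018), and POLH, a translesion DNA polymerase, at -0.46 (limma adjusted p = 0.0067). The larger rises were in STEAP3, a metalloreductase of iron uptake, at 0.73 (limma adjusted p = 0.00111), DDIT4, an inhibitor of mTORC1, at 0.52 (limma adjusted p = 0.00593), and RNF144B, a ubiquitin ligase, at 0.50 (limma adjusted p = 0.0136). These 6 genes had groups that did not overlap and were called in all 14 alternatives. TNFRSF10D had log2 signals of 10.42, 10.38 and 10.41 against 9.94, 9.91 and 9.93; like FAS and TNFRSF10B it belongs to the TNF receptor family. STEAP3 had 6.56, 6.43 and 6.62 against 7.28, 7.30 and 7.23, the opposite direction. The count of 10 lower went down to 4 without the first or the third array labelled HEK-BAHD1, to 5 without the first or second HEK293-CT array and to 6 without the third, and the count of 7 higher to 4 without the second array labelled HEK-BAHD1. Over all probe sets, 2.76% to 4.45% were called lower with an array left out, against 6.39% with all arrays. Of the 7 higher, TM7SF3, TSKU and TGFA kept their calls in 0, 1 and 3 of the 6 analyses that left out an array. CYFIP2, like STEAP3, DDIT4 and RNF144B, kept its call in all 6. Of the lower calls besides SERTAD1, TNFRSF10D and POLH, that of BLOC1S2 was kept in all 6, THBS1 in 2 and IKBIP in 0. APAF1, DUSP14, INPP1 and PRDM1 each kept theirs in 1.

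Genes that p53 lowers indirectly, through p21, the RB family and the DREAM repressor complex, had a median log2 fold change of -0.12. It was -0.16 with centred arrays and -0.079 with renewed quantile normalization, beside -0.037 and 0.0019 for all probe sets. Of 26 measured, 3 were lower (11.5%, against 6.39% of all probe sets) and 0 higher (against 6.79%) by limma. The counts by LPE were also 3 and 0, against 7.29% and 6.19%. At an unadjusted p under 0.05, 11 were lower (42.3%, against 14.8%) and 1 higher (against 14.5%). Groups did not overlap, with the arrays labelled HEK-BAHD1 lower, for 12 (46.2%, against 16.9%) and higher for 1 (against 16.7%). CDC25C, a phosphatase that starts mitosis, fell by 0.30 (limma adjusted p = 0.0105) and KIF20A, a mitotic kinesin, by 0.28 (limma adjusted p = 0.0132). TTK, a kinase of the spindle checkpoint, fell by 0.23 (limma adjusted p = 0.0456), a call lost without any single array. In the BCL2 family and the caspases outside the members, 22 were measured, of which 2 were lower (9.09%, against 6.39%) and 1 higher (4.55%, against 6.79%). BID, a BH3-only protein, was higher at 0.31 (limma adjusted p = 0.0187), while MCL1, the survival protein that NOXA binds, and BCL2L11, the BH3-only protein BIM, both fell by 0.24 (limma adjusted p = 0.0235 and 0.0241). Without single arrays these calls were seldom kept, MCL1 only without the second array labelled HEK-BAHD1, BCL2L11 in none of the 6 analyses, and BID only without the first HEK293-CT or the third array labelled HEK-BAHD1.

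**Figure D4:**
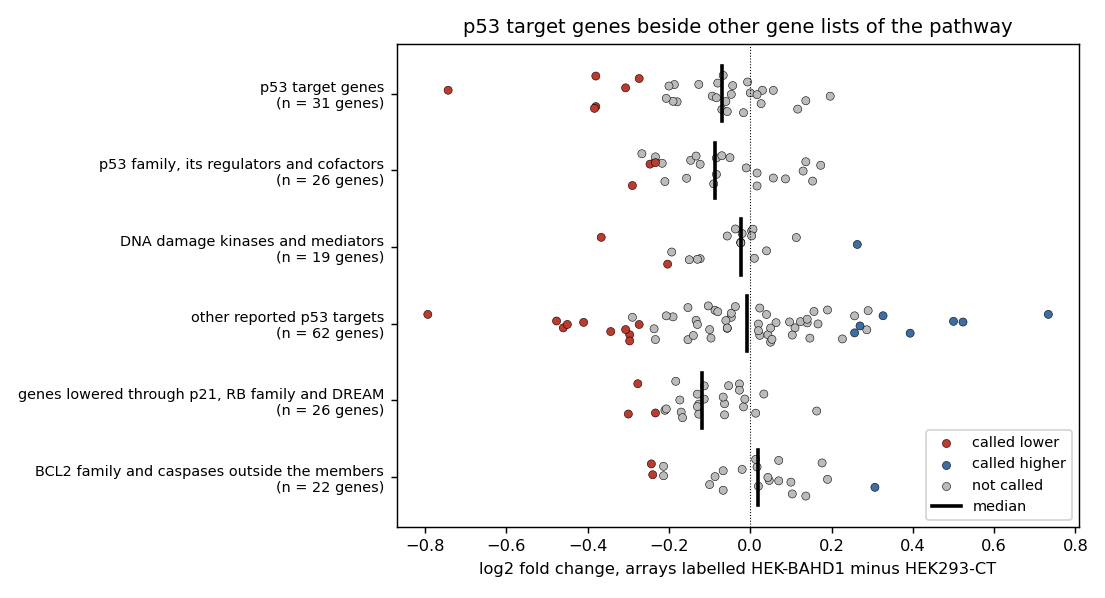
Log2 fold change of each measured gene in the p53 target set and in the other lists of the pathway, with a point per gene, the called genes in colour and a line at the median of each list. The medians lie between -0.12 for genes lowered through p21 and DREAM and 0.018 for the BCL2 family and caspases, with the p53 targets at -0.07.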

How the data were processed

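The deposited log2 values were made by the authors from Affymetrix HuGene ST arrays with RMA. The sources used here give neither its version nor the genome build of the array annotation. The number of the deposited series differs from the one in the paper, and it was taken as the same experiment. Of 28869 probe sets, 19311 name 1 gene, 1751 several and 7807 none. With limma 3.58.1 in R 4.3.3, all 21062 naming a gene were fitted without a block, with the threshold on adjusted p set at 0.05 and that on the difference between medians at 0.2. The number of arrays limits the precision, and intervals are 95% confidence intervals. The LPE test that the methods name was rewritten from its description, using 100 intensity bins and a 10-degree-of-freedom spline. limma and LPE were run on simulated data with falls larger than those of most called members, so those runs do not speak to falls of that size. Members and lists were chosen with earlier results of these data known. Every member was named, and up to 6 called genes of each list, or all of them for the other reported targets. Alternatives were array centring, renewed quantile normalization, LPE, no median threshold, removal of the dimmest 30%, all probe sets, a variance trend, a replicate block, and omission of every array in turn. BTG2 and FDXR were not analysed here. The study's supplement gives the same passage for HEK293-CT and the first HEK-BAHD1 replicate, a later one for the second, and none for the third. The part of passage in the differences between the lines was not tested.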

Additional observations from a re-analysis of the deposited data

How the results depend on the processing

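PLK2, KITLG, PMAIP1, FAS and PPM1D were called lower in all 14 alternatives, and TNFRSF10B in 7. The number of members called lower ranged from 5 to 8, and 0 were called higher in each alternative. Over all probe sets, the share called lower ran from 2.76% without the third HEK293-CT array to 10.7% without the dimmest 30%. Between 806 and 1577 probe sets were called higher. The median log2 fold change of the members was -0.07, against -0.11 with centred arrays and -0.044 with renewed quantile normalization, and -0.083 to -0.053 when an array was left out. For all probe sets it was 0.0033, against -0.037 with centring, 0.0019 with quantile normalization and -0.0033 to 0.01 with an array left out. Centring moved the calls over all probe sets from 1345 lower and 1430 higher to 1823 and 1052. Values near 0 changed sign. TP53INP1 was -0.023 with centring, -0.016 with quantile normalization and -0.027 to 0.063 with an array left out. BAX was -0.013 and TP53I3 -0.01 with centring, and SESN1 was 0.0061 with quantile normalization. Centring takes the same amount off every value of an array, so it moved all log2 fold changes alike, that of PERP from 0 to -0.04. With an array left out, BBC3 ranged from -0.097 to 0.048, TP53I3 from -0.033 to 0.087, SESN1 from -0.04 to 0.01 and TRIM22 from -0.13 to 0.035. The cause of the sign changes other than those with centring was not tested. Replicate numbers did not pair the arrays, since deviations of same-numbered arrays correlated at -0.077, 0.074 and -0.038. With the replicate number as a block, 5 members were called lower, TNFRSF10B having an adjusted p of 0.0643, and over all probe sets 829 were lower and 962 higher. With 1 array left out, 581 to 937 probe sets were lower and 806 to 938 higher. The BAHD1 log2 fold change then ranged from -3.18 to -3.03. Over the 14 alternatives, 1 to 7 of the p53 regulators, 0 to 3 of the damage kinases and 4 to 12 of the other reported targets were called lower. For the genes under p21 and DREAM the count was 2 to 4, and for the BCL2 family and caspases 0 to 2. These ranges stand beside the 2.76% to 10.7% of all probe sets called lower over the same alternatives. Signals of TNFRSF10A and TRIM22 lay among the dimmest 20%, where a change is hard to measure.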
